A study of Homo sapiens with 9 samples.

Results

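The 10 genes described here are the S100 genes *S100A6*, *S100A8*, *S100A9*, *S100A10*, *S100A11*, *S100A13*, *S100A14* and *S100A16*, the annexin gene *ANXA2* and the chromatin gene *HMGB1*. They were taken by symbol from the 59452 rows of a gene table and all 10 were found in it. They are genes of danger signals and of the families these belong to, and the study's own text names *S100A8* and *S100A9* among them as genes tied to inflammatory cytokines. The measurements are RNA-seq libraries of MDA-MB-453, an established human breast cancer cell line that the labels call triple-negative, with wild-type genotype. There were 9 libraries in 3 groups of 3, all grown in DMEM with 10% fetal bovine serum and harvested at 48 hours. Attached cells received vehicle (DMSO), cells in forced suspension on plates coated with poly-HEMA, a polymer that keeps cells from adhering, received vehicle, and suspended cells received 10 µM AT-0174, a dual inhibitor of the tryptophan-degrading enzymes TDO2 and IDO1. No group held attached cells with AT-0174, so an effect of the inhibitor could be read in suspension only. The groups are triplicates of 1 cell line, and p-values measure the spread between these triplicates.

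S100 proteins are small calcium-binding proteins that usually work as dimers, and most of their genes lie in a cluster on chromosome 1. Inside cells they bind and regulate other proteins when calcium rises, and several of them are also released by stressed or dying cells. Outside cells, S100A8 and S100A9 (together calprotectin) and HMGB1, a DNA-binding protein of the nucleus, act as danger signals on receptors such as RAGE and TLR4. S100A10 is unusual in having lost the ability to bind calcium. It pairs with annexin A2, the product of *ANXA2*, in a complex on the inner face of the membrane and on the cell surface, where it takes part in plasminogen activation.

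Library totals ran from 36649997 to 48019126 estimated counts, so that a count of 0 allowed up to 0.0625 to 0.0819 CPM (counts scaled to a common library total), for counting error only. All 9 luminal epithelial markers examined were expressed, with summed levels of 5326 to 5463 CPM in attached cells, 5698 to 5852 CPM in suspended cells with vehicle and 5765 to 6014 CPM with AT-0174. Of the 8 myeloid markers, whose cells store *S100A8* and *S100A9*, 7 stayed under 1 CPM in every library and only *CD68* exceeded it. The summed myeloid level was 1.63 to 2.11 CPM in attached cells, 1.28 to 1.55 CPM in suspended cells and 1.52 to 2.39 CPM with AT-0174. Of the 4 fibroblast markers only *COL1A1* exceeded 1 CPM, and of the 4 basal markers only *TP63* did.

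The levels of the 10 genes fell into 3 tiers when compared per transcript length, as the deposited TPM values summed over the transcripts of each gene and averaged over the 9 libraries. *HMGB1* at 1786 TPM, *ANXA2* at 1156 TPM, *S100A14* at 1051 TPM, *S100A11* at 1022 TPM and *S100A16* at 997 TPM formed the highest tier. *S100A13* at 181 TPM, *S100A6* at 128 TPM and *S100A10* at 115 TPM formed the middle tier. *S100A9* at 1.54 TPM and *S100A8* at 0.930 TPM were near the limit of detection. Within the highest tier, the libraries of *ANXA2*, *S100A14*, *S100A11* and *S100A16* overlapped, whereas every *HMGB1* library lay above every *ANXA2* library. In attached cells *S100A6* (183 ± 8.47 TPM, SD, n = 3) and *S100A13* (189 ± 8.90 TPM) did not differ beyond their spread, while *S100A10* was lower (150 ± 6.58 TPM).

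**Figure D1:**
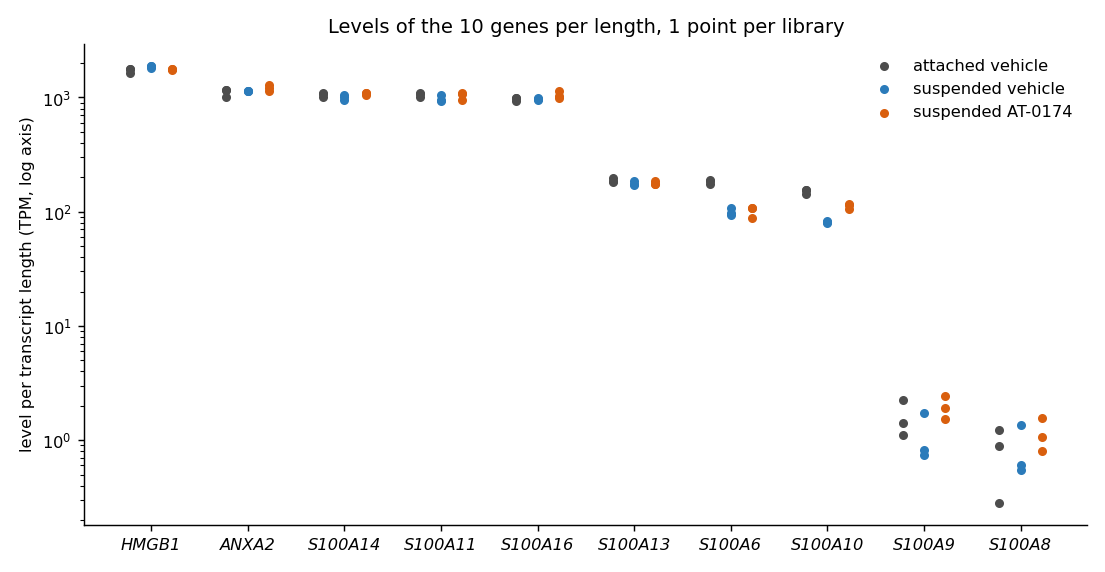
Level per transcript length (TPM, logarithmic axis) of the 10 genes, with 1 point per library and colors for the 3 groups, ordered by the mean over libraries. *HMGB1*, *ANXA2*, *S100A14*, *S100A11* and *S100A16* lie between 925 and 1892 TPM, *S100A13*, *S100A6* and *S100A10* between 79.6 and 198 TPM, and *S100A9* and *S100A8* at 2.45 TPM or less.

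Of the 9 genes with enough reads to be tested, 5 were lower in suspended than in attached cells, and none was higher. *S100A10* fell by 49.3% and *S100A6* fell by 48.7%. *S100A13* fell by 17.1%, *S100A11* fell by 14.2% and *S100A14* fell by 11.7%. *ANXA2*, *S100A16*, *HMGB1* and *S100A9* did not pass the threshold of 0.05 on the adjusted p of edgeR's quasi-likelihood test, and *S100A8* had too few counts to be tested. Over all 15528 genes tested, 21.2% were called in either direction, with 1677 genes (10.8%) called lower and 1620 genes called higher. The median log2 fold change was -0.22 over the 9 tested genes and -0.00 over all genes tested. Of the 9 luminal markers, 4 were called higher in suspended cells and none lower, and their part in these results was not tested. In bulk RNA, fewer expressing cells and less RNA per cell cannot be told apart.

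**Figure D2:**
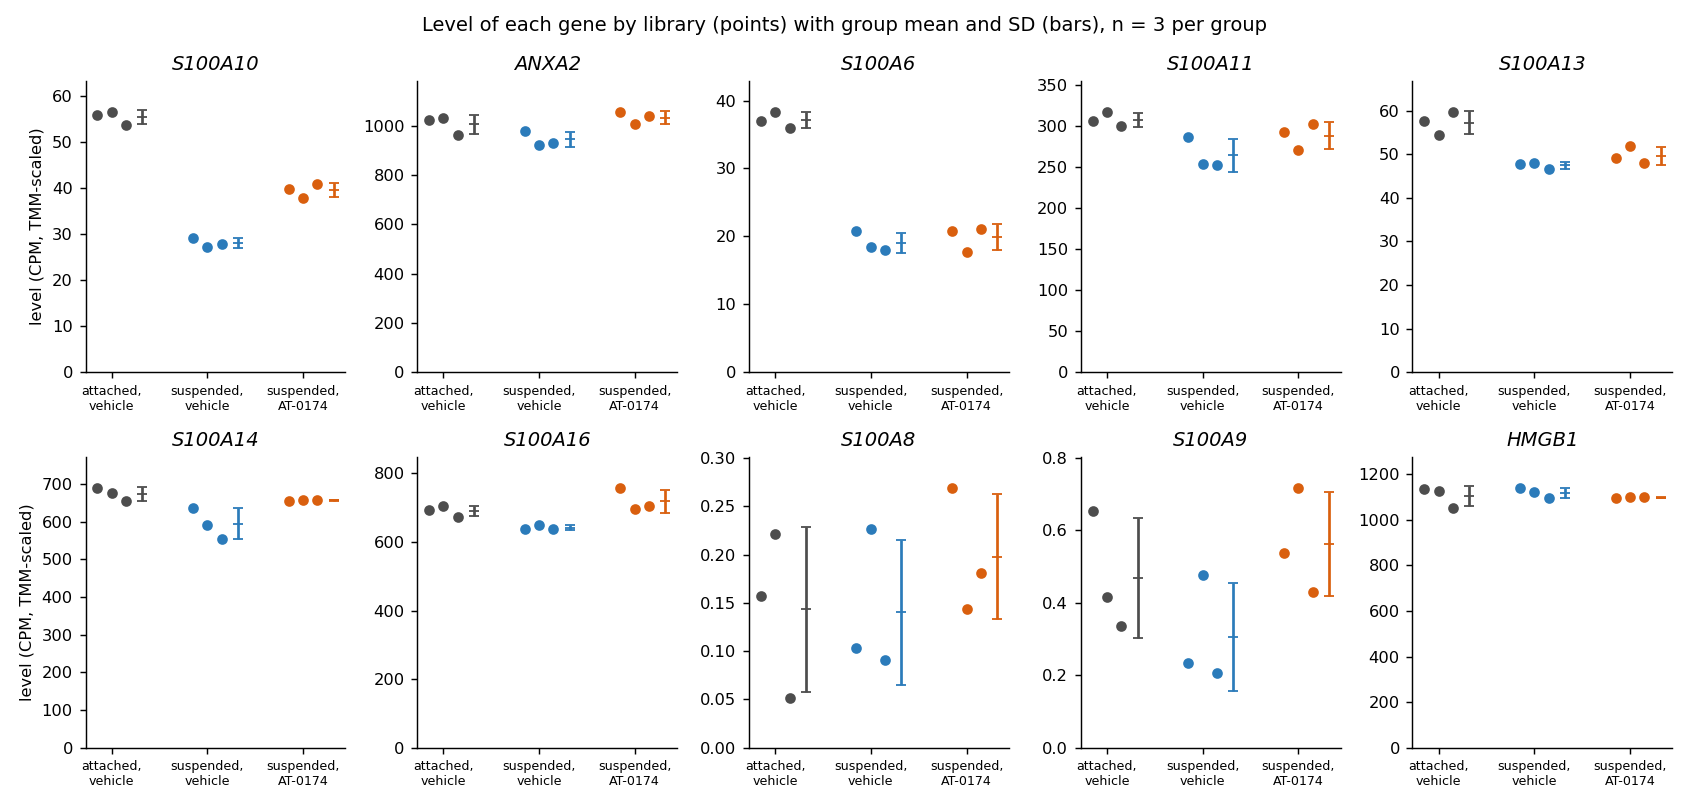
Level of each of the 10 genes in CPM (vertical axes, each starting at 0) in every library, with the group mean and SD (n = 3) as bars. *S100A10* was 53.7 to 56.5 CPM in attached cells, 27.1 to 29.2 CPM in suspended cells with vehicle and 37.9 to 40.9 CPM with AT-0174, whereas *S100A6* was 18.0 to 20.7 CPM in suspended cells with vehicle and 17.7 to 21.1 CPM with AT-0174.

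*S100A10*, the annexin A2 partner, lies on chromosome 1 (GRCh38, chr1:151982915-151993859, minus strand, GENCODE 44). All of its reads were assigned to 1 protein-coding transcript. It measured 55.9, 56.5 and 53.7 CPM in the attached libraries and 29.2, 27.1 and 27.8 CPM in the suspended libraries with vehicle. The groups lay far apart relative to their spread, with means of 55.4 ± 1.49 CPM and 28.1 ± 1.05 CPM (SD, n = 3). This was a log2 fold change of -0.98 (SE 0.04, adjusted p = 6.9e-08 by edgeR). No other tested gene of the 10 fell by more.

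The 250 bases before the *S100A10* start are shown because *S100A10*, alone among the 10 genes, was called in both comparisons, and because this window lies outside every annotated exon. They are the RefSeq promoter sequence of GRCh38.p14, minus strand, chr1:151993860-151994109, with capitals for the 2 motif matches found.
S100A10: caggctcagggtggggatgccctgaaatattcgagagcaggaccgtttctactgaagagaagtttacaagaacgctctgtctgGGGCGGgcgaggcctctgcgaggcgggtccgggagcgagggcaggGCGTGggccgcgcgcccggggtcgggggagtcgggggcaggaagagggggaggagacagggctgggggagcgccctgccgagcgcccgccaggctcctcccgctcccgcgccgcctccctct
Of the motifs searched on both strands, the window held 1 GC box (GGGCGG) that starts 167 bases before the start and 1 AHR core (GCGTG) 122 bases before it. GC boxes occurred in 42.6% of 35116 promoter windows of the same length, and AHR cores in 32.2%. The window had no match to an AP-1 site (TGANTCA, in 6.57% of windows), a TATA box (TATAAA, 10.7%) or an NRF2 core (TGACNNNGC, 10.9%). The *S100A6* window, from the gene that fell alongside *S100A10*, held 3 GC boxes, overlapping ones included, and 2 AHR cores. The *ANXA2* window held 3 GC boxes, 1 AHR core, 1 AP-1 site and 1 TATA box. Thus GC boxes and AHR cores were present in the windows of *S100A10*, *S100A6* and *ANXA2* alike, and also in that of *S100A11*. TATA boxes were found for *S100A8*, *S100A9*, *S100A13* and *ANXA2*. Motif matches are a description of letters, and no binding was measured.

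*ANXA2* encodes annexin A2, a calcium-dependent membrane-binding protein, and lies on chromosome 15 (chr15:60347134-60402883, minus strand). Its main transcript held 50.4% of its TPM and the next one 32.6%. *ANXA2* measured 1023, 1034 and 963 CPM in attached and 979, 924 and 932 CPM in suspended libraries with vehicle. The groups overlapped, since the lowest attached library was below the highest suspended one. The log2 fold change of -0.09 (SE 0.04, 95% interval -0.17 to -0.01) had an adjusted p of 0.0955 by edgeR. On the TPM scale, without scaling by TMM, the group means stood in the opposite order, at 1111 TPM in attached and 1139 TPM in suspended cells.

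*S100A6* encodes calcyclin, a calcium sensor, and lies at chr1:153534599-153536244 on the minus strand. One transcript held 95.9% of its TPM. *S100A6* measured 37.0, 38.3 and 35.9 CPM in attached and 20.7, 18.4 and 18.0 CPM in suspended libraries with vehicle. Every suspended library was well below every attached one, with a log2 fold change of -0.96 (SE 0.07, 95% interval -1.12 to -0.81, adjusted p = 3.5e-06 by edgeR). Its fall thus overlapped in interval with that of *S100A10*, whose interval ran from -1.08 to -0.88.

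*S100A13*, *S100A11*, *S100A14* and *S100A16* lie nearby on chromosome 1 and had smaller differences. *S100A13*, which takes part in the release of proteins that lack a signal peptide, measured 57.7, 54.5 and 59.7 CPM in attached and 47.8, 48.1 and 46.6 CPM in suspended libraries. The groups did not overlap, and the log2 fold change was -0.27 (SE 0.04, adjusted p = 0.0017 by edgeR). *S100A13* (chr1:153618787-153631360) overlaps *S100A1* on the opposite strand and a long noncoding RNA gene on its own strand, of which neither exceeded 126 counts in a library, beside 1851 to 2379 for *S100A13*. *S100A11*, an annexin A1 partner, at chr1:152032506-152047907, measured 306, 317 and 300 CPM in attached and 287, 253 and 252 CPM in suspended libraries. The suspended libraries were all lower, with 1 of them close to the attached range, and the log2 fold change was -0.22 (SE 0.05, adjusted p = 0.0118 by edgeR). Leaving out the second or the third suspended vehicle library moved the adjusted p of *S100A11* to 0.0586 or 0.0544.

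*S100A14*, which is typical of epithelial cells, and *S100A16* are neighbors (chr1:153614255-153616986 and chr1:153606886-153613145, both on the minus strand). *S100A14* measured 689, 676 and 654 CPM in attached and 636, 592 and 554 CPM in suspended libraries, which did not overlap. Its log2 fold change was -0.18 (SE 0.04, adjusted p = 0.0118 by edgeR). *S100A16* measured 693, 704 and 674 CPM in attached and 639, 650 and 637 CPM in suspended libraries. These groups did not overlap either, but the log2 fold change of -0.10 (SE 0.04) had an adjusted p of 0.0523 by edgeR, and the TPM means without TMM scaling stood the other way, at 966 TPM in attached and 971 TPM in suspended cells. Under 5 of 15 alternative analyses, the adjusted p of *S100A16* was below 0.05, with the lowest at 0.0156 in DESeq2. In all, 6 of the 9 tested genes had suspended libraries entirely below the attached ones in TMM-scaled CPM, as did 18.7% of all genes tested. On the TPM scale, without scaling by TMM, only *S100A10* and *S100A6* kept this separation. There the libraries of *S100A13*, *S100A11*, *S100A14* and *S100A16* overlapped between the groups. The TPM means of *S100A13*, *S100A11* and *S100A14* were still lower in suspended cells, by a smaller percentage than in CPM.

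The secreted danger signals were barely transcribed in any group. *S100A8* (chr1:153390032-153391073, minus strand) had 6, 8 and 2 counts in attached, 4, 10 and 4 counts in suspended vehicle and 13, 6 and 8 counts in AT-0174 libraries. *S100A9* (chr1:153357854-153361023, plus strand) had 25, 15 and 13 counts, 9, 21 and 9 counts and 26, 30 and 19 counts in the same groups. The groups overlapped for both genes. The log2 fold change of *S100A9* between suspended and attached cells was -0.61 (SE 0.41, 95% interval -1.49 to 0.28, adjusted p = 0.322 by edgeR). The interval included both no change and a fall as large as that of *S100A10*. The fold change of *S100A9* ran from -0.29 without the first attached library to -1.09 without the second suspended vehicle library, never called. With no filter on low counts, the adjusted p of *S100A8* was 1 in this comparison and 0.852 for AT-0174.

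*HMGB1* (chr13:30456704-30617597, minus strand) was the most abundant of the 10 genes, and its levels in the 3 groups were close. It measured 1133, 1125 and 1054 CPM in attached, 1140, 1121 and 1094 CPM in suspended vehicle and 1094, 1101 and 1098 CPM in AT-0174 libraries. The ranges of the 3 groups overlapped. The log2 fold change between suspended and attached cells was 0.02 (SE 0.03, 95% interval -0.05 to 0.09, adjusted p = 0.731 by edgeR), and its sign turned, uncalled, to -0.0051 when pseudogene copies were added and to -0.013 without the third attached library. *HMGB1* has many near-identical processed pseudogenes, and 24 of 48 such rows held counts. They made up 16.6% to 19.2% of the summed counts, mostly in *HMGB1P6* with 7530 to 8966 counts, so that part of the *HMGB1* reads may be assigned to copies. For *ANXA2* the 3 pseudogene rows held 0.294% to 0.388%, and the 8 rows for *S100A11* held none.

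AT-0174 raised 1 of the 9 tested genes in suspended cells, *S100A10*, by 41.1%. No other gene of the 10 passed the threshold. Log2 fold changes were above 0 for 8 of the 9 tested genes, and for 7878 of all 15528 genes tested. Over all 15528 genes tested, 0.779% were called in either direction and 0.522% were called higher. The median log2 fold change was 0.13 over the 9 tested genes and 0.00 over all genes tested. Both comparisons share the suspended vehicle libraries, so a library that is low there lowers one fold change and raises the other.

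**Figure D3:**
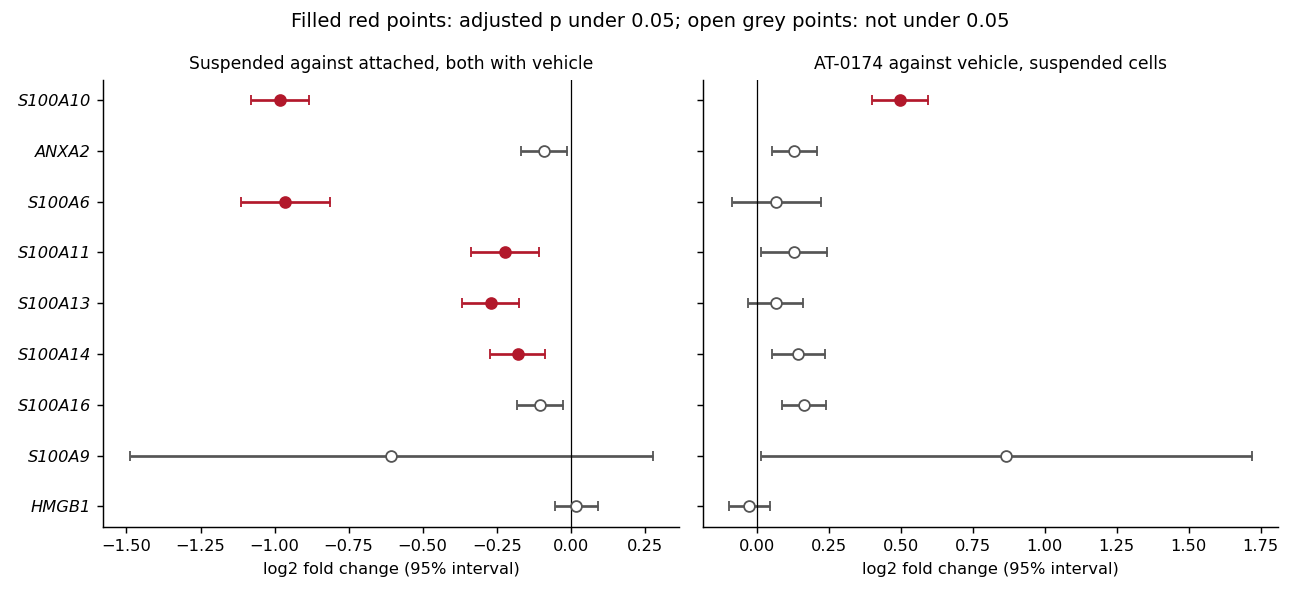
Log2 fold change (horizontal axis) with its 95% interval for the 9 tested genes, suspended against attached cells on the left and AT-0174 against vehicle on the right, with separate scales. Filled red points passed an adjusted p of 0.05. *S100A10* and *S100A6* lie near -1 on the left, and *S100A10* alone is filled on the right, at 0.50.

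*S100A10* measured 39.9, 37.9 and 40.9 CPM with AT-0174, against 29.2, 27.1 and 27.8 CPM with vehicle. Every treated library lay above every vehicle library, with a log2 fold change of 0.50 (SE 0.05, 95% interval 0.40 to 0.59, adjusted p = 8.7e-05 by edgeR). Its mean of 39.6 ± 1.54 CPM (SD, n = 3) remained below the attached mean of 55.4 CPM, and those groups did not overlap, a difference that was not tested. It was called in all 15 alternative analyses of each comparison, with log2 fold changes of 0.47 to 0.53 for AT-0174 and -1.01 to -0.95 for suspension.

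*S100A6*, which fell as far as *S100A10* in suspension, measured 20.8, 17.7 and 21.1 CPM with AT-0174. These libraries surrounded the vehicle range of 18.0 to 20.7 CPM. Its log2 fold change was 0.07 (SE 0.07, adjusted p = 0.857 by edgeR), and its 95% interval of -0.09 to 0.22 did not reach that of *S100A10*. *S100A13* measured 49.3, 51.9 and 47.9 CPM with AT-0174, with a log2 fold change of 0.06 (SE 0.04, adjusted p = 0.731).

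*ANXA2*, *S100A14* and *S100A16* had treated libraries entirely above the vehicle libraries without passing the threshold. *ANXA2* measured 1056, 1006 and 1040 CPM with AT-0174 and had a log2 fold change of 0.13 (SE 0.04, adjusted p = 0.177 by edgeR). *S100A14* measured 656, 657 and 657 CPM, a narrower spread than in the other groups, and had a log2 fold change of 0.14 (SE 0.04, adjusted p = 0.226). *S100A16* measured 758, 696 and 704 CPM and had a log2 fold change of 0.16 (SE 0.04, adjusted p = 0.0591). With *S100A10*, these made 4 of the 9 tested genes without overlap in the higher direction, beside 7.78% of all genes tested. *S100A16* passed the threshold in DESeq2, in limma-voom and with no filter on low counts, *ANXA2* and *S100A14* in DESeq2 and with no filter, and *S100A11* with no filter.

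*S100A11* measured 292, 270 and 302 CPM with AT-0174, which overlapped the vehicle libraries, and its log2 fold change was 0.13 (SE 0.05, adjusted p = 0.477 by edgeR). *HMGB1* had a log2 fold change of -0.03 (SE 0.03, 95% interval -0.10 to 0.04, adjusted p = 0.886). *S100A9* had a log2 fold change of 0.87 (SE 0.39, 95% interval 0.01 to 1.72, adjusted p = 0.543), from at most 30 counts in a library. It ran from 0.64 without the third suspended vehicle library to 1.35 without the second, never called.

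**Figure D4:**
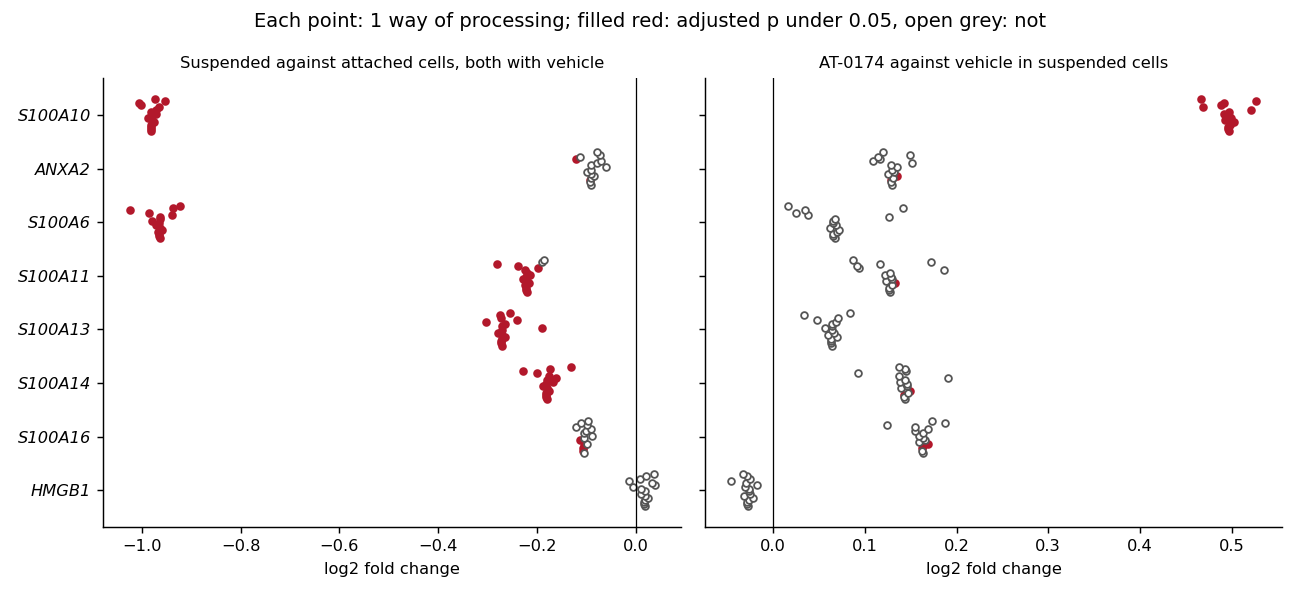
Log2 fold change (horizontal axis) of 8 of the genes, *S100A8* and *S100A9* left out for their low counts, under the reported analysis and 15 alternatives, 1 point each, with filled red points where the adjusted p was under 0.05. *S100A10* is filled under each of them in both panels, *S100A6*, *S100A13* and *S100A14* in the left panel, and *S100A11* in 13 of the 15 alternatives there.

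Because *S100A10* and annexin A2 form a complex, the level of *S100A10* was also expressed per 100 TPM of *ANXA2* in the same library. This ratio was 13.2, 13.3 and 14.1 in the attached libraries, 7.29, 7.04 and 7.19 in the suspended libraries with vehicle and 8.91, 9.10 and 9.54 with AT-0174. The 3 groups did not overlap. The difference in mean log2 ratio was -0.91 between suspended and attached cells and 0.36 between AT-0174 and vehicle. An exact two-sided permutation test gave p = 0.1 for each of these 2 comparisons, which is the smallest p that 3 against 3 libraries allow, and adjustment over the 2 leaves 0.1. RNA levels do not give the amount of complex.

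**Figure D5:**
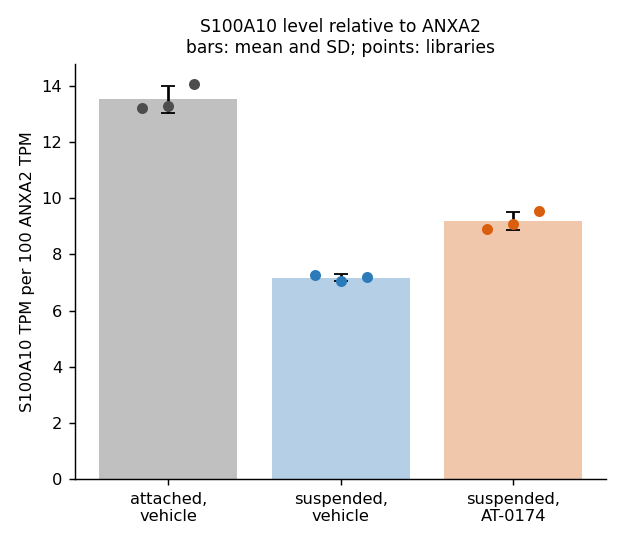
*S100A10* TPM per 100 *ANXA2* TPM (vertical axis from 0) in the 3 groups, with bars for the mean, error bars for the SD (n = 3) and points for libraries. The mean was 13.5 ± 0.487 in attached cells, 7.17 ± 0.121 in suspended cells with vehicle and 9.18 ± 0.326 with AT-0174.

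Among the partners of annexin A2 and *S100A10*, 5 of 15 listed genes were tested, and 2 were higher in suspended cells. Over all genes tested, 21.2% were called in either direction in this comparison. *AHNAK*, a giant scaffold protein that binds the complex, rose from 492 to 573 CPM in attached to 547 to 760 CPM in suspended libraries, which overlapped (log2 fold change 0.31, SE 0.10, adjusted p = 0.0496 by edgeR). *CTSB*, the protease cathepsin B, rose by 0.19 on the log2 scale (SE 0.05, adjusted p = 0.0227). None of the 5 was called with AT-0174, beside 0.779% of all genes tested. In the plasminogen system, *PLG*, *PLAT* and *PLAU* were listed at 0 in 5 to 8 of the 9 libraries, while *PLAUR*, the urokinase receptor, was detected in every library at 0.609 to 1.05 CPM and was not called.

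Other S100 genes were mostly absent, with 7 of 12 at 0 in every library and 3 tested. *S100P*, another calcium sensor of the family, rose from 0.784, 0.692 and 0.567 CPM in attached to 1.37, 1.43 and 1.91 CPM in suspended libraries, in the opposite direction to the 5 called genes described above (log2 fold change 1.20, SE 0.21, adjusted p = 0.0026 by edgeR). *S100A4*, named after its values were seen, fell by 1.59 on the log2 scale (SE 0.48, adjusted p = 0.0342 by edgeR). It measured 0.360 to 0.523 CPM in attached and 0.0775 to 0.205 CPM in suspended libraries. This fall rests on 2 to 20 counts per library, and no alternative analyses of *S100A4* are given. Its mean over all libraries of 0.235 CPM was below the 0.445 CPM of *S100A9*, so it too was near the limit of detection. Neither *S100P* nor *S100A4* was called with AT-0174.

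Of 12 other annexins, 7 were tested, and 3 were lower and 1 higher in suspended cells. Over all genes tested, 10.8% were called lower in suspended cells, 21.2% in either direction, and 0.779% with AT-0174. *ANXA6* fell by 0.48 on the log2 scale (SE 0.03, adjusted p = 1.9e-06), *ANXA3* by 0.38 (adjusted p = 0.0226) and *ANXA9* by 0.29 (adjusted p = 0.0025), whereas *ANXA11* rose by 0.32 (adjusted p = 0.0024). *ANXA9* resembled *S100A10* in direction, at 36.6 ± 1.33 CPM in attached, 29.9 ± 1.76 CPM in suspended vehicle and 35.5 ± 1.16 CPM in AT-0174 libraries (SD, n = 3), with a log2 fold change of 0.25 for AT-0174 (SE 0.05, adjusted p = 0.0424 by edgeR). *HMGB2* and *HMGB3*, the tested relatives of *HMGB1*, were not called in either comparison.

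Of the listed receptors and adaptors of danger signals in general, some were absent or nearly so. *TLR4* was listed at 0 in 6 of 9 libraries and its partner *LY96* in all 9, and *CD14* in 3. Others were detected in every library and were not called, among them *BSG* at 534 to 564 CPM, *CXCR4* at 6.57 to 9.20 CPM and *TLR2* at 0.181 to 0.747 CPM. *AGER*, which encodes RAGE, was present at 3.90 to 5.30 CPM in attached and 2.66 to 3.13 CPM in suspended libraries (log2 fold change -0.66, SE 0.17, adjusted p = 0.0173 by edgeR). *IL1R1*, the interleukin-1 receptor, fell by 0.41 (SE 0.06, adjusted p = 0.0014), and *MYD88*, an adaptor of this list, by 0.15 (SE 0.05, adjusted p = 0.0491). Thus 3 of 12 tested genes of this list were lower in suspended cells, none was higher, and none was called with AT-0174. Over all genes tested, 10.8% were called lower in suspended cells, 21.2% in either direction, and 0.779% with AT-0174.

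Among 18 other danger signals, 14 were tested, of which 4 were lower and 2 higher in suspended cells. Over all genes tested, 10.8% were called lower in suspended cells, 21.2% in either direction, and 0.779% with AT-0174. *HSPA1A* and *HSPA1B*, near-identical heat shock genes between which reads can be split, fell by 0.15 and 0.20 on the log2 scale (adjusted p = 0.0252 and 0.0050 by edgeR), *HMGN1* by 0.12 (adjusted p = 0.0220) and *CIRBP*, named after its values were seen, by 0.19 (adjusted p = 0.0289). *HSPD1*, a mitochondrial chaperone, rose by 0.13 (adjusted p = 0.0144). *LGALS3*, which encodes galectin-3, rose by 0.20 in suspension (SE 0.06, adjusted p = 0.0279) and by a further 0.28 with AT-0174 (SE 0.06, adjusted p = 0.0431). *IL1A* and *IL1B* were at 0 in every library.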

How the data were processed

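RNA of the 9 libraries was sequenced as paired ends, and per the study's methods reads were processed with nf-core/rnaseq, adapters being removed by cutadapt 3.4 in Trim Galore 0.6.7. The methods name STAR 2.7.9a for alignment to GRCh38 and Salmon 1.10.1 for quantification. The labels and the methods name different library kits, and whether counting used strand is not given in the sources used here. The authors deposited Salmon's estimated counts summed by gene, without normalization, for 59452 rows, and estimated counts and TPM for each of 236920 transcripts. Each gene value equals its summed transcript reads.

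After rounding the estimated counts, 15528 genes passed filterByExpr in edgeR 4.0.16 (R 4.3.3), and libraries were scaled by TMM. All 9 libraries entered 1 quasi-likelihood fit with the group as its only term, and Benjamini-Hochberg adjusted p under 0.05 was called. CPM uses the TMM-scaled library sizes. Levels between genes use the deposited TPM summed by gene, and the ratio of *S100A10* to *ANXA2* used an exact permutation test. Alternatives used DESeq2 1.42.0, limma 3.58.1 (voom), other filters, scalings and sample sets, counts rebuilt from TPM, added pseudogene rows, a replicate block and each library left out. Positions are from GENCODE 44.

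The 10 genes, the 6 related gene lists and the 4 marker lists were chosen with earlier results of these data known. All 10 genes are given. Of each list, called genes with a mean of at least 50 normalized counts are named, at most 5 per list and comparison by smallest p. Some other listed genes, called or not, are also named outside this rule. Replicates of a group differed by more than sampling noise (chi-square per degree of freedom 3.06 to 17.4), so none was counted as a duplicate.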

Additional observations from a re-analysis of the deposited data

How the results depend on the processing

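Of the 10 genes, 5 were called lower in suspended cells, a count of 5 to 7 across the tools, filters, scalings and sample sets and of 4 to 6 with 1 library left out. *HMGB1* turned from 0.02 to -0.0051 on the log2 scale with pseudogene copies added (adjusted p = 0.94) and to -0.013 without the third attached library (adjusted p = 0.816), in neither case called, and ran from -0.013 to 0.039 with 1 library left out. *ANXA2* was called lower in DESeq2 (adjusted p = 0.0431) and without the third attached library (0.0407). With AT-0174 the count of 1 became 4 in DESeq2, 2 in limma-voom and 5 with no filter on low counts, and stayed 1 with any library left out. Over all genes, 3297 were called in suspended cells, 1726 with counts rebuilt from TPM and 1935 to 2693 with 1 library left out. The lowest counts came without the third attached library (1935) and without the second suspended vehicle library (1951). With AT-0174, 121 were called, 239 in DESeq2, 499 with no filter, 35 with counts rebuilt from TPM and 63 to 86 with 1 library left out. The causes were not tested. The log2 difference of the *S100A10* to *ANXA2* ratio was -0.93 to -0.89 in suspended cells and 0.33 to 0.38 with AT-0174 with 1 library left out, each with an exact permutation p of 0.2, the smallest that 3 against 2 libraries allow.

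The correlations of deviations from group means were -0.04 to 0.05 between same-numbered libraries and -0.1 to 0.104 between differently numbered ones. With 3 libraries per group, this check cannot tell whether same-numbered libraries shared a batch. With the replicate block, 5 of the 10 genes were called in suspended cells and 1 with AT-0174, and 3250 and 146 of all genes. Depth limits *S100A8* and *S100A9*, for which only large changes could be detected.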

Other observations

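The genomic neighborhoods of *S100A10* and *S100A6* were examined after their falls in suspension had been seen. Within 250 kb of *S100A10*, 9 other genes were tested, and 1 of them, *S100A11*, was called lower in suspended cells and none higher by edgeR. Their log2 fold changes ran from -0.87 to 0.39, and none was called with AT-0174. Within 250 kb of *S100A6*, 14 other genes were tested and 4 were called lower, namely *S100A4*, *S100A13*, *S100A14* and SLC27A3. SLC27A3, a fatty acid transport protein gene, had a log2 fold change of -0.18 (adjusted p = 0.0125 by edgeR). *S100A11*, *S100A13* and *S100A14* are among the 10 genes, so their calls are those already given. *S100A4*, also given before, had at most 20 counts in a library. None of the 14 was called higher or called with AT-0174. Over all genes tested, 10.8% were called lower. Genes that start between *S100A13* and SLC27A3, such as ILF2 (log2 fold change 0.00, adjusted p = 0.941) and CHTOP (-0.02, adjusted p = 0.74), were not called by edgeR. The S100 genes *S100A16* (adjusted p = 0.0523), *S100A9* (0.322) and *S100A1* (0.546) of this window were not called by edgeR either. No explanation was tested.

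Of 9 luminal markers, 4 were called higher in suspended cells, among them FOXA1, a transcription factor of luminal cells, and 5 were not called. Over all genes tested, 21.2% were called in either direction. FOXA1 rose by 0.26 on the log2 scale (SE 0.03, adjusted p = 0.00011 by edgeR). None of the 9 was called with AT-0174. *COL1A1*, the expressed gene of the fibroblast list, fell by 0.28 in suspended cells (SE 0.05, adjusted p = 0.0018).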
